A study of Homo sapiens with 4 samples.

Results

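The unfolded protein response and the protein folding machinery of the endoplasmic reticulum (ER) were examined through 32 named genes in AGS, a widely used cell line that was derived from a human stomach adenocarcinoma. A gene was measured where the array platform's annotation maps a probe set (a group of short probes that together read 1 transcript) to its symbol alone, and the brightest such probe set over the 4 arrays stood for it. That gave 31 members of the 19775 genes measured. SYVN1, which encodes the ubiquitin ligase of ER-associated degradation, had no probe set of its own under that rule. The members are defined by their role in the pathway and by no threshold on these values, and they were chosen with earlier results of these arrays known. The study comprised 4 single-channel Affymetrix arrays, 2 of LPS-treated and 2 of untreated cells. The LPS-treated cells were AGS cells given medium with 10 µg/ml H. pylori lipopolysaccharide, the outer-membrane glycolipid of Helicobacter pylori, and the untreated cells were AGS cells given fresh medium without it. Both were kept in Ham's F-12 medium with foetal calf serum, glutamine, penicillin and streptomycin, and RNA was taken at 8 h. Per the design text, 2 independent experiments were run, and the model is a single cell line. The comparison asks how transcript levels in stomach epithelial cells stand after 8 h with purified LPS.

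Proteins that enter the secretory pathway pass through the SEC61 channel into the ER, where chaperones, lectins and disulfide isomerases fold them, and proteins that fail are sent back to the cytosol for degradation. When unfolded proteins build up, the membrane sensors IRE1 (ERN1), PERK (EIF2AK3) and ATF6 are activated. IRE1 splices the mRNA of the transcription factor XBP1, PERK slows translation, and ATF6 is cut to release a transcription factor. XBP1 and ATF6 raise the transcription of chaperone and degradation genes, partly through the ER stress element in their promoters. Secretory epithelia of the stomach depend on this machinery to make mucins and enzymes. An expression array reads transcript levels, and neither the splicing of XBP1 nor the activation of the sensors was measured here.

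Promoter windows from RefSeq (GRCh38.p14, from 250 bases before to 50 after an annotated start) were found for 30 of the 32 genes. They are shown because 13 of the 30 genes hold a known stress-response sequence there, which the choice of members did not use. Both strands were searched for the ER stress element (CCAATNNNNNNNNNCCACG), ER stress element II (ATTGG, any 1 base, then CCACG) and the core TGACGTG, allowing no mismatch. The ER stress element was found in windows of 8 members (CALR, CANX, CRELD2, ERO1B, HSP90B1, HSPA5, PDIA6 and XBP1), while 0.0769% of all 35116 windows hold it. The 30 genes have 37 windows, and CANX holds the same site in overlapping ones, so counts of genes and shares of windows are unlike units. ER stress element II was found in HERPUD1, HYOU1 and SDF2L1, against 0.0541% of all windows, and TGACGTG in DNAJC10, HYOU1 and SEC61A1, against 1.97%. A match describes the letters of the window and is no evidence of binding, and the elements were first described in promoters of some of these genes. The windows of 5 members follow, written along the direction of transcription, with the fixed letters of each match in capitals. HSPA5 (chr9:125241294-125241593, minus strand) has the element from position -66 to position -48 relative to its start, and HSP90B1 (chr12:103930160-103930459, plus strand) has 2, one on each strand. HYOU1 (chr11:119057156-119057455, minus strand) has 2 copies of element II, the more distant of which overlaps TGACGTG. HERPUD1 (chr16:56931892-56932191, plus strand) has element II, and XBP1 (chr22:28800520-28800819, minus strand) has the ER stress element.
HSPA5: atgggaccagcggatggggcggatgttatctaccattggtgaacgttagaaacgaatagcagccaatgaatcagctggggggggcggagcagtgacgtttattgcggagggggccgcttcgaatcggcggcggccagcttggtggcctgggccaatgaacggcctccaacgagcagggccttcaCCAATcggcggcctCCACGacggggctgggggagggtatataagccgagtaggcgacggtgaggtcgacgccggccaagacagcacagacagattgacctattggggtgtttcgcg
HSP90B1: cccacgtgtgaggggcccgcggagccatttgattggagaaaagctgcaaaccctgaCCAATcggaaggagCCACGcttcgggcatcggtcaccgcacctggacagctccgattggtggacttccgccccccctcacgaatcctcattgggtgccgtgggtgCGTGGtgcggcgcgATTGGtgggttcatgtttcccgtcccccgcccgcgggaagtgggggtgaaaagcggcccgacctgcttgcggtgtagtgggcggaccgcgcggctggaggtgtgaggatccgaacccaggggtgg
HYOU1: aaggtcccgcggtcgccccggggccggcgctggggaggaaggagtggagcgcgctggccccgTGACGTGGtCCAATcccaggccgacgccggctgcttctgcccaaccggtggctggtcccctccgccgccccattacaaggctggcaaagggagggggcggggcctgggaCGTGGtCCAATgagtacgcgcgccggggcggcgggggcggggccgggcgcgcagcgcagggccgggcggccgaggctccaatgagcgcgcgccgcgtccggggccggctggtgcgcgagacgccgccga
HERPUD1: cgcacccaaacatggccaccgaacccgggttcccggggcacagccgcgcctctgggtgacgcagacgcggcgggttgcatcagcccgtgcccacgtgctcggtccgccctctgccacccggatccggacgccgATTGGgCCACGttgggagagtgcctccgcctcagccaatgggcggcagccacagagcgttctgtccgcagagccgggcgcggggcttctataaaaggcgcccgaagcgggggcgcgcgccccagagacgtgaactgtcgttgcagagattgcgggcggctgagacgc
XBP1: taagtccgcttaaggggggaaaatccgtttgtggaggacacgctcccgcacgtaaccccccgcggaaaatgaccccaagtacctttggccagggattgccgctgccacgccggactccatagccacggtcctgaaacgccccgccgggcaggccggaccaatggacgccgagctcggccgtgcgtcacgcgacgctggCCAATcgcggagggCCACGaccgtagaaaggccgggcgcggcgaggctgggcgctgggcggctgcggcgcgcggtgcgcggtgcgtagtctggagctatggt

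No member passed the test between LPS-treated and untreated cells, and the differences were small in both directions. Values are log2 expression, and a difference is the LPS mean minus the untreated mean. With limma and Benjamini-Hochberg adjustment over all genes at a threshold of 0.05, 0 of 31 members were called (adjusted p = 1 for each), and 0% of the 19775 genes were called. At an unadjusted p under 0.05 the count was 0 of 31 members as well, against 2.83% of all genes (1.26% higher and 1.57% lower). Member differences ran from -0.16 for CALR to 0.16 for SEC61A1, with a median of 0.055, where the median of all genes was 0.017. The 95% intervals of all 31 members lay between 0.68-fold and 1.38-fold. In RNA from whole cultures, a lower value in all cells and a loss of the cells that express a gene cannot be told apart.

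Of the 31 members, 23 lay above 0 and 8 below, where 56.5% of all genes lay above 0. The brightest of the 4 arrays was an LPS array for 28 members and an untreated array for 3, where it was an LPS array for 60.5% of all genes. This count was not planned in advance. The dimmest array was LPS replicate 1 for 6 members, LPS replicate 2 for 3, untreated replicate 1 for 13 and untreated replicate 2 for 9. The share of all genes was not computed for the dimmest array. The 30 members that reached the median level over genes (7.25) are compared more closely with the 9888 genes at or above it, of which 50.7% lay above 0 and 55.5% were brightest on an LPS array. ERO1B lay below that level. These counts describe the list and carry no test, since its genes share the 4 arrays. For a single gene, exact permutation of 2 and 2 arrays has 0.33 as its smallest two-sided p.

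**Figure D1:**
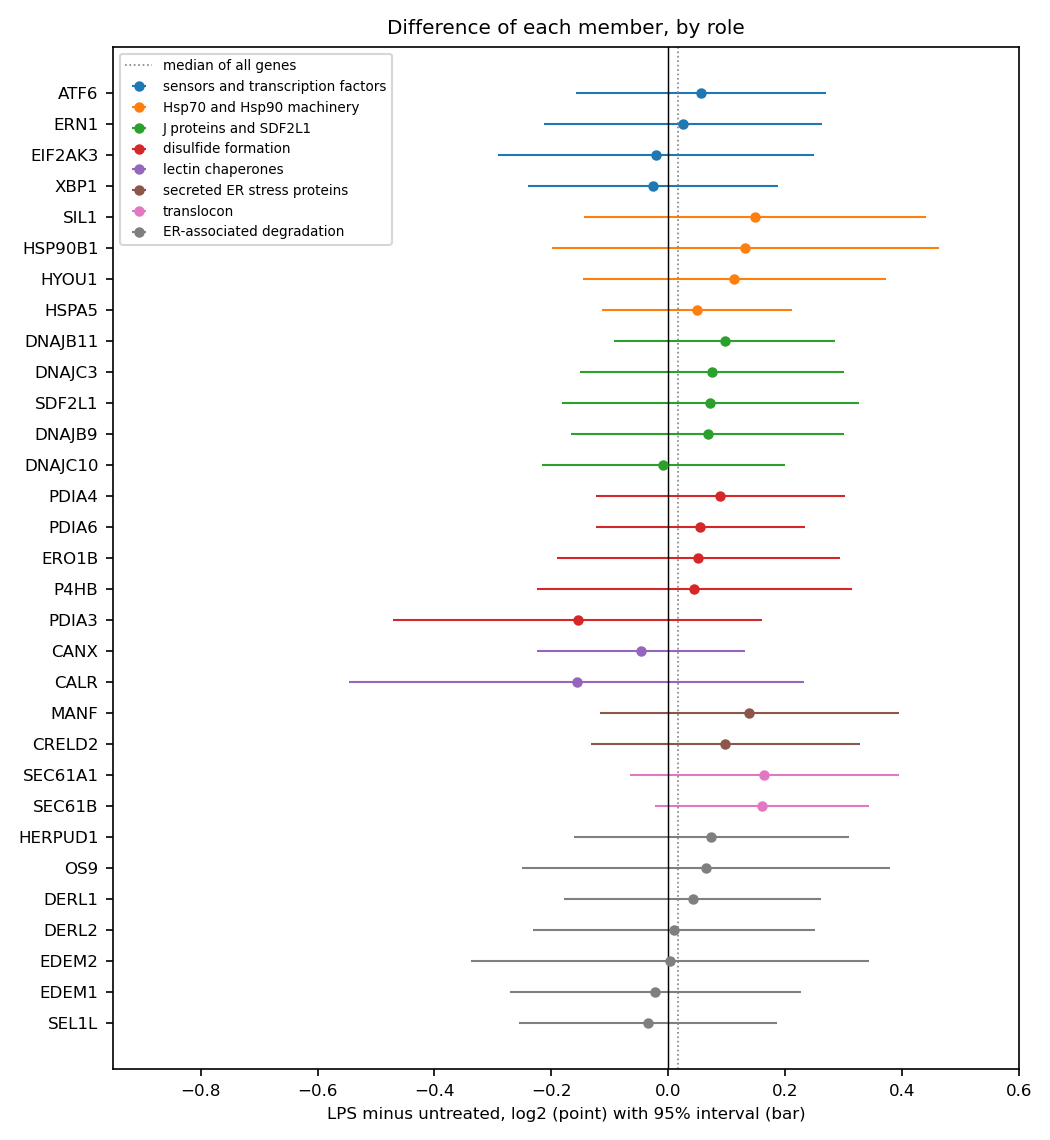
Difference of each of the 31 members, LPS minus untreated (log2, horizontal axis), with its 95% interval from limma as a bar, grouped and coloured by role. Points run from -0.16 to 0.16, every interval crosses 0, and the dotted line marks the median of all genes at 0.017.

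The sensors and XBP1 differed by 0.06 or less in either direction. XBP1, the transcription factor whose mRNA IRE1 splices, was at 11.90 and 11.76 in LPS-treated cells, against 11.91 and 11.80 in untreated cells. Its difference was -0.03 ± 0.09 (SE, limma, n = 2 arrays a group), and the groups overlapped. ERN1, which encodes IRE1, was at 9.82 and 9.75 in LPS-treated cells and 9.79 and 9.72 in untreated cells, 0.03 higher in each same-numbered pair. EIF2AK3, which encodes PERK, was at 9.45 and 9.28 in LPS-treated cells and 9.45 and 9.33 in untreated cells. For ERN1, EIF2AK3 and XBP1 the arrays numbered 1 were the brighter ones in both groups. ATF6 was at 10.94 and 11.03 in LPS-treated cells and 10.91 and 10.95 in untreated cells, a difference of 0.06 with an interval of -0.16 to 0.27. All 4 ATF6 probe sets lay above 0, by 0.01 to 0.07, and all 3 ERN1 probe sets by 0.02 to 0.09.

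The members of the Hsp70 and Hsp90 machinery all lay above 0, and the groups overlapped for each. HSPA5, which encodes BiP, the main Hsp70 of the ER and the usual marker of ER stress, was at 13.94 and 13.82 in LPS-treated cells and 13.85 and 13.81 in untreated cells. Its fold was 1.04 with an interval of 0.92 to 1.16, the narrowest on the log2 scale among the members, and its second probe set differed by 0.07. HSP90B1, the ER Hsp90 also known as GRP94, was at 11.47 and 11.11 in LPS-treated cells and 11.29 and 11.03 in untreated cells. The LPS arrays stood further from each other than the group means, which differed by 0.13, and its dimmer probe set differed by -0.09. HYOU1, a large Hsp70 relative that exchanges nucleotide on BiP, was at 11.94 and 12.13 in LPS-treated cells and 11.81 and 12.05 in untreated cells, a difference of 0.11 ± 0.11 (SE, limma, n = 2). SIL1, another exchange factor of BiP, was at 9.03 and 9.26 in LPS-treated cells and 8.93 and 9.06 in untreated cells, a difference of 0.15 ± 0.13 (SE, limma, n = 2). HYOU1 and SIL1 were brighter on the arrays numbered 2 in both groups, and HSPA5 and HSP90B1 on those numbered 1.

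Among the J proteins, which bring unfolded clients to BiP, DNAJB11 (ERdj3) had the largest difference. It was at 12.11 and 12.10 in LPS-treated cells and 11.96 and 12.06 in untreated cells. Both LPS arrays lay above both untreated arrays, and the difference was 0.10 with an interval of -0.09 to 0.29. DNAJC3, which encodes p58IPK, an inhibitor of PERK, differed by 0.08 on its brightest probe set, SDF2L1, a partner of DNAJB11, by 0.07 and DNAJB9, a repressor of IRE1, by 0.07. DNAJC10, a disulfide reductase that serves degradation, differed by -0.01. The brightest probe sets of DNAJB9 and DNAJC3 stood apart from their others: the other DNAJB9 probe sets differed by -0.26 and -0.11, and those of DNAJC3 by -0.30 to 0.03.

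The disulfide isomerase PDIA3, which works with the lectin chaperones on glycoproteins, was at 12.63 and 13.08 in LPS-treated cells and 13.03 and 12.98 in untreated cells. CALR, the lectin chaperone calreticulin, was at 9.66 and 10.15 in LPS-treated cells and 9.96 and 10.16 in untreated cells. CANX, its membrane-bound relative calnexin, was at 13.01 and 13.15 in LPS-treated cells and 13.11 and 13.13 in untreated cells. All 3 genes were lowest on LPS replicate 1. Their differences of -0.15, -0.16 and -0.05 turned above 0 without LPS replicate 1, at 0.07, 0.09 and 0.02. Leaving it out makes the groups uneven in replicate number, so the shift between numbers enters these values. Within same-numbered arrays PDIA3 differed by -0.41 and 0.10, CALR by -0.30 and -0.02 and CANX by -0.11 and 0.01. The other 2 PDIA3 probe sets differed by -0.06 and 0.07, and those of CALR by -0.29 and 0.00. Of the other isomerases, PDIA4 was at 10.73 and 10.75 in LPS-treated cells and 10.63 and 10.66 in untreated cells, without overlap, a fold of 1.06 with an interval of 0.92 to 1.23. PDIA6 differed by 0.05 and P4HB, the founding protein disulfide isomerase, by 0.05, and its dimmer probe sets by 0.17 and 0.20. ERO1B, an oxidase that recharges the isomerases, was dim, at 5.31 and 5.34 in LPS-treated cells and 5.21 and 5.33 in untreated cells.

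With all 4 arrays, the SEC61 channel genes had the largest positive differences of the 31 members. Without LPS replicate 1, SIL1 (0.26), MANF (0.26), OS9 (0.22) and HYOU1 (0.21) lay above SEC61A1 (0.20) and SEC61B (0.11). A left-out array makes the groups uneven in replicate number, so the shift between numbers enters such values. Within the arrays numbered 2, OS9 and HYOU1 differed by 0.09 each, below SEC61A1 (0.13), while SIL1 (0.20) and MANF (0.21) lay above it. HSP90B1 was the highest without LPS replicate 2 (0.31) and without untreated replicate 1 (0.26). Within same-numbered arrays it differed by 0.18 and 0.08. HERPUD1 was the highest with the mean of all probe sets (0.17) and without those ending in _x_at or _s_at (0.27). SEC61A1, the pore-forming subunit, was at 10.92 and 11.00 in LPS-treated cells and 10.72 and 10.87 in untreated cells. SEC61B, a small accessory subunit, was at 12.65 and 12.54 in LPS-treated cells and 12.44 and 12.43 in untreated cells. For both, each LPS array lay above each untreated array. The fold was 1.12 with an interval of 0.96 to 1.31 for SEC61A1, and 1.12 with an interval of 0.99 to 1.27 for SEC61B (limma, unadjusted p = 0.136 and 0.0762, adjusted p = 1 for both). Their second probe sets also lay above 0, by 0.09 each, though that of SEC61B was dim, at 4.75 to 5.24, and differed by 0.24 in pair 1 (the arrays numbered 1) and -0.06 in pair 2.

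Both secreted stress proteins lay above 0. MANF, an ER protein released on calcium loss and known as a neurotrophic factor, was at 11.10 and 11.34 in LPS-treated cells and 11.03 and 11.13 in untreated cells. LPS replicate 1 lay between the untreated arrays, and the difference was 0.14 with an interval of -0.12 to 0.39. Without LPS replicate 2 it was 0.017, and without LPS replicate 1 it was 0.26. CRELD2, an ER stress-inducible protein with isomerase activity, was at 10.30 and 10.34 in LPS-treated cells and 10.17 and 10.27 in untreated cells. Its groups did not overlap, and the difference was 0.10 ± 0.10 (SE, limma, n = 2). Each of these 2 genes was measured by 1 probe set.

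The genes of ER-associated degradation had a median of 0.01 over 7 members, with 5 above 0 and 2 below. HERPUD1, a stress-inducible organiser of the degradation complex, was at 12.48 and 12.22 in LPS-treated cells and 12.31 and 12.24 in untreated cells. Its difference was 0.17 in pair 1 and -0.02 in pair 2. Its dimmer probe set was at 7.22 and 7.05 in LPS-treated cells and 6.96 and 6.77 in untreated cells, without overlap, a difference of 0.27. DERL1, a channel component, was at 10.48 and 10.45 in LPS-treated cells and 10.45 and 10.40 in untreated cells. Its LPS arrays lay above its untreated arrays only narrowly, and its other 3 probe sets differed by -0.09, -0.03 and 0.22. DERL2, its relative, differed by 0.01, the mannosidase-related EDEM1 and EDEM2 by -0.02 and 0.00, the lectin OS9 by 0.07 and the adaptor SEL1L by -0.03. SEL1L was lowest on LPS replicate 1 on its brightest probe set, and all 4 of its probe sets lay below 0, by 0.03 to 0.24.

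**Figure D2:**
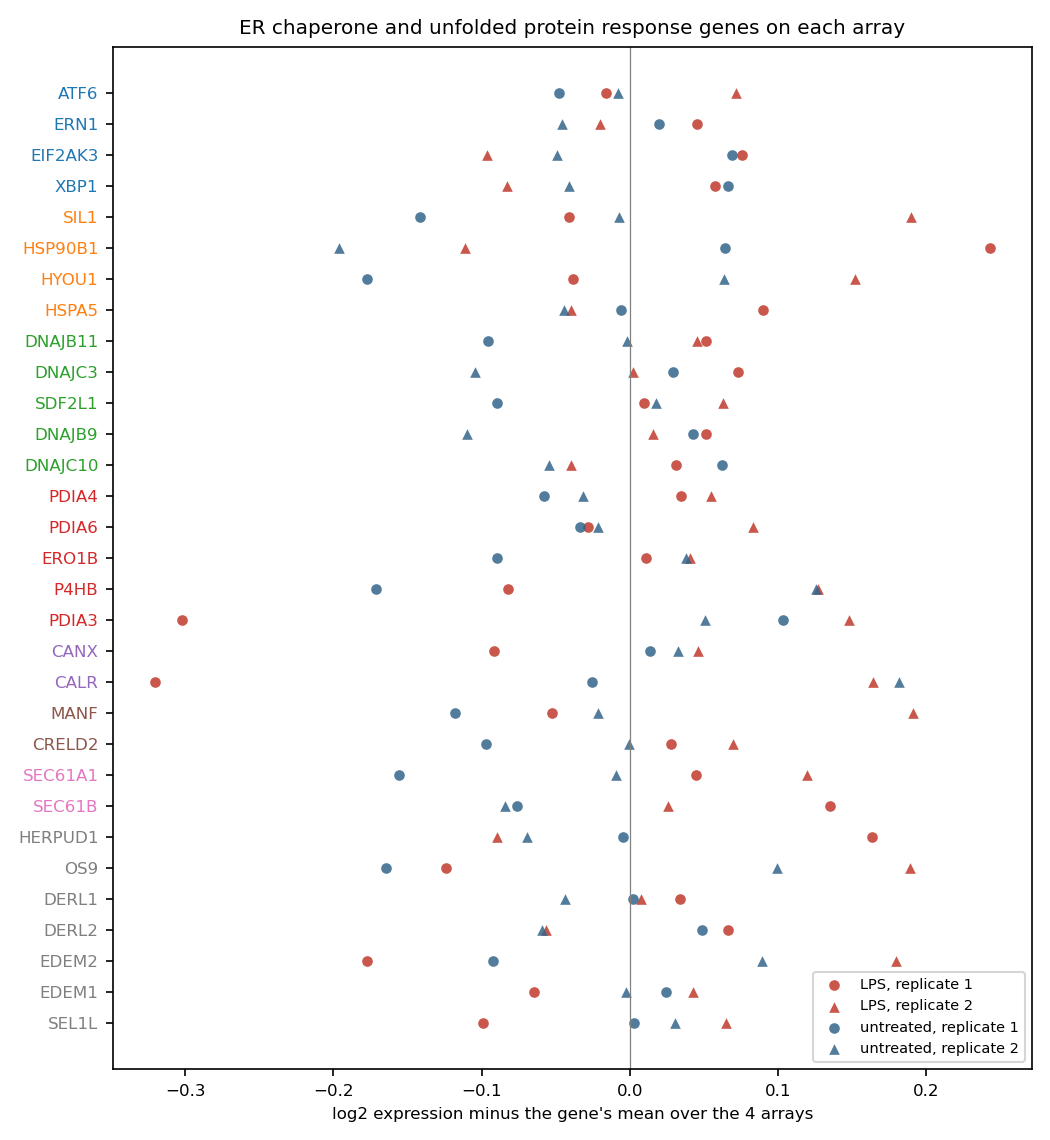
Log2 expression of each member on each array after subtraction of the gene's mean over the 4 arrays (horizontal axis), with LPS in red, untreated in blue, circles for replicate 1 and triangles for replicate 2. Gene names are coloured by role. PDIA3 and CALR stand out through LPS replicate 1 at the left, and DNAJB11, PDIA4, CRELD2, SEC61A1, SEC61B and DERL1 are the 6 members with both LPS arrays to the right of both untreated arrays.

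In all, 6 members had both LPS arrays above both untreated arrays and 0 had both below, where 17.9% and 11.7% of all genes did so. Among the genes at or above the median level, 15.4% had both LPS arrays above. The count of 6 of 31 lies near that background. The difference within same-numbered arrays was above 0 in both pairs for 21 members and below 0 in both for 2, CALR and XBP1, against 32.2% and 23.7% of all genes. Among the genes at or above the median level, 30.8% were above 0 in both pairs. The median of the members was 0.040 in pair 1 and 0.051 in pair 2. The 8 members whose pairs disagreed were PDIA3, CANX, SEL1L, EDEM1, EDEM2, DNAJC10, EIF2AK3 and HERPUD1. PDIA3 disagreed by the most, at -0.41 and 0.10. The remaining 7 disagreed by values of 0.17 or less in size.

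**Figure D3:**
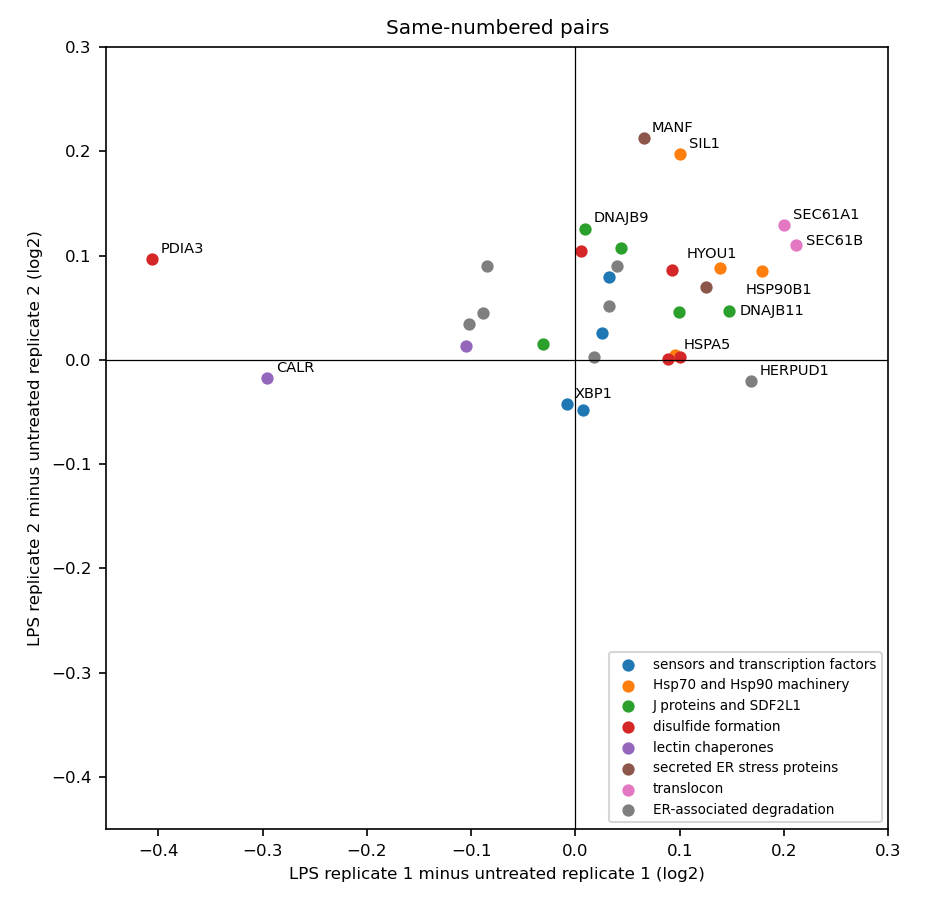
LPS minus untreated in the arrays numbered 1 (horizontal axis, log2) against the same in those numbered 2 (vertical axis, log2), 1 point per member, coloured by role. Of 31 members, 21 lie at upper right, and PDIA3 and CALR lie far to the left at -0.41 and -0.30.

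Most members differed more between replicate numbers than between LPS-treated and untreated cells. The difference between the arrays numbered 2 and those numbered 1 was larger in size than LPS minus untreated for 25 of 31 members, where it was so for 60.2% of all genes. The exceptions were the 6 members whose groups did not overlap. That follows from the definitions, since groups without overlap cannot have a shift larger than LPS minus untreated. In both groups, 16 members were brighter on the arrays numbered 2 and 12 were dimmer. The largest such shifts were 0.35 for CALR, -0.31 for HSP90B1, 0.29 for OS9, 0.27 for EDEM2 and 0.25 for P4HB. The median size of the shift was 0.096 over the members, and the median size of LPS minus untreated was 0.065. With the replicate number as a block in the fit, limma put 2 of 31 members at an unadjusted p under 0.05 (SEC61B and SEC61A1), against 7.52% of all genes, and neither passed after adjustment. Each group holds 1 array of each number, so a shift common to both groups cancels in LPS minus untreated. The block left each member's difference unchanged and altered its standard error, for CALR from 0.17 to 0.09 and for PDIA3 from 0.14 to 0.12. A shift that differs between the groups was not tested.

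Probe sets of the same gene showed how far a single reading can be trusted. The 31 members had 75 probe sets, and 23 members had more than 1. For 11 of those 23 all probe sets had the same sign, and for 12 at least 1 had the opposite sign. Over all 75 probe sets the median difference was 0.037, and 49 lay above 0. Over the 44 that were not the brightest it was 0.016, and 26 lay above 0. The 2 members measured by 4 or more probe sets that all had the same sign were ATF6 above 0 and SEL1L below. A probe set ending in _x_at or _s_at can pick up related transcripts. The probe sets that stand for CALR, HSP90B1, OS9 and PDIA6 end in _x_at, and those for HERPUD1, DERL1, SEL1L, HYOU1, SDF2L1, DNAJB9, PDIA4, CANX and SEC61A1 end in _s_at.

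**Figure D4:**
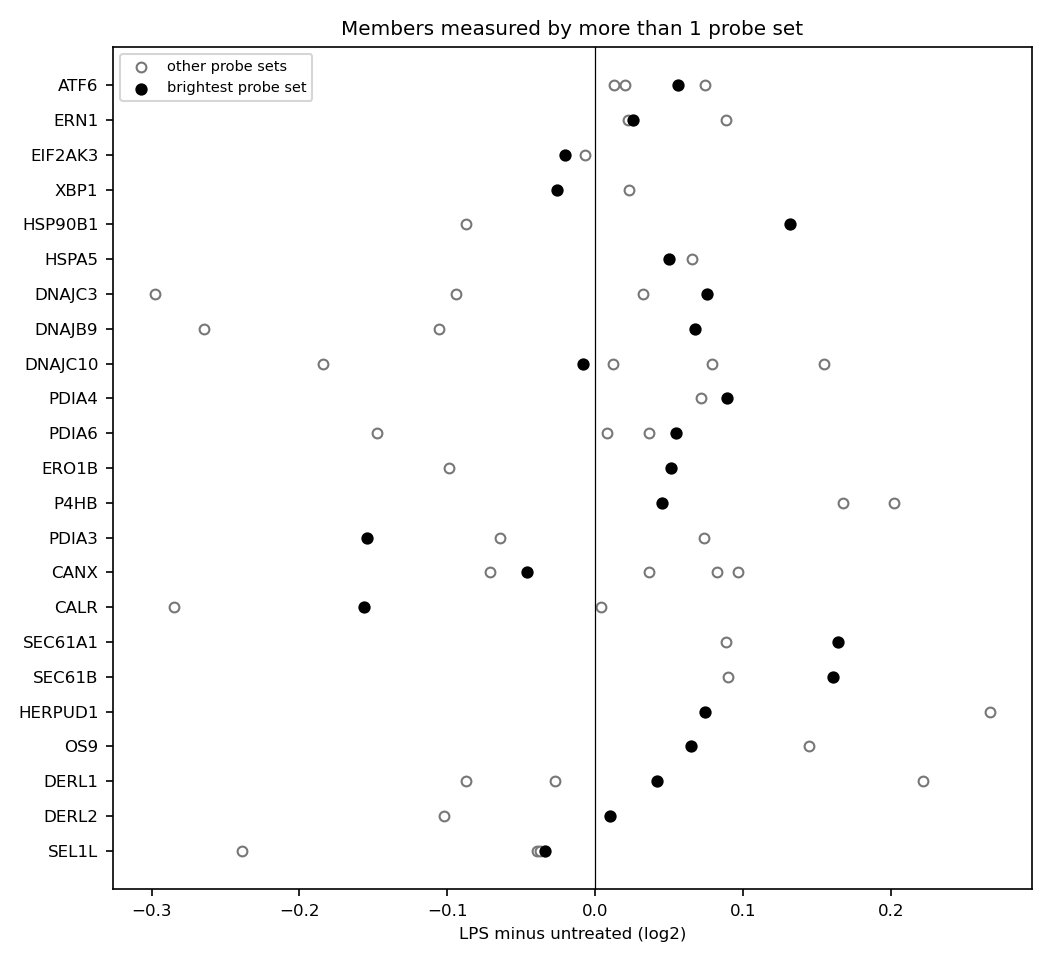
LPS minus untreated (log2, horizontal axis) for the 23 members with more than 1 probe set, with the brightest as a filled circle and the others as open circles. The readings of DNAJC3, DNAJB9, DNAJC10, HSP90B1 and PDIA6 lie on both sides of 0, and those of ATF6, ERN1, PDIA4, P4HB, SEC61A1 and SEC61B lie above it.

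The 11 measured members with either form of the ER stress element in a window had a median difference of 0.055, and the 18 measured members with a window but neither form had a median of 0.0605. No test was made between them. PDIA3 and DERL1 were not searched. The range of the 11 ran from CALR at -0.16 to HSP90B1 at 0.13. SEC61B, PDIA4 and MANF have a window without any of the searched letters.

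The other genes of the pathway were taken from 6 lists with 113 genes, of which 108 were measured. With limma, 0 passed the adjusted threshold in either direction (adjusted p = 1 for each), and at an unadjusted p under 0.05 there were 2 higher and 0 lower, beside 1.26% and 1.57% of all genes. Their median was 0.035, and 65 of 108 lay above 0, beside 56.5% of all genes. The 22 measured genes of degradation outside the members had a median of 0.098, with 19 above 0, 18 of them above 0 in both pairs, and 9 with both LPS arrays above both untreated arrays. Over all genes, 32.2% were above 0 in both pairs and 17.9% had both LPS arrays above, and at or above the median level 30.8% and 15.4% did. No test was made of this list. UBE2G2, a ubiquitin-conjugating enzyme that serves the degradation ligases, was at 10.85 and 10.65 in LPS-treated cells and 10.40 and 10.53 in untreated cells (limma, unadjusted p = 0.037). The remaining UBE2G2 probe sets lay from -0.04 to 0.03. MAN1B1, an ER mannosidase, differed by 0.19 and UFD1, a cofactor of the segregase VCP, by 0.15.

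The further stress signalling genes had a median of 0.036 over 17, with 10 above 0. CREB3L2, a membrane-bound transcription factor related to ATF6, was at 9.61 and 9.53 in LPS-treated cells and 9.40 and 9.31 in untreated cells, and its other probe sets differed by 0.11 and 0.13. ERN2, the epithelial form of IRE1, differed by 0.19 and PPP1R15A, which reverses the translational block of PERK, by 0.18. Other folding enzymes had a median of 0.030 over 19, with the thioredoxin-related TMX1 at -0.20, the calcium-binding CALU at 0.17 and the peptidyl-prolyl isomerase FKBP2 at 0.18. N-glycan genes had a median of 0.061 over 14, with 8 above 0. MAGT1 and STT3B of the oligosaccharyltransferase differed by -0.31 and -0.16, and RPN2 by 0.11. For MAGT1 the difference was -0.61 in pair 1 and -0.01 in pair 2, and its other probe sets differed by -0.003 and 0.04. DAD1, another subunit, chosen after its values were seen, was at 11.09 and 12.29 in LPS-treated cells and 12.19 and 12.16 in untreated cells.

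Of the translocation genes outside the members, 10 of 22 lay above 0, with a median of -0.010. Both LPS arrays lay above both untreated arrays for 4 of them and below for 1, beside 17.9% and 11.7% of all genes. TRAM1, a membrane protein beside the channel, differed by -0.17, the signal recognition particle receptor subunit SRPRB by 0.17 and the particle protein SRP54 by 0.14. Transport between the ER and the Golgi had a median of -0.012 over 14. SURF4, a cargo receptor, was at 11.15 and 11.14 in LPS-treated cells and 10.74 and 10.95 in untreated cells, a difference of 0.30 (limma, unadjusted p = 0.021), and its other probe sets differed by -0.02 and 0.13. SEC31A, a coat protein, was at 11.41 and 11.95 in LPS-treated cells and 12.01 and 11.99 in untreated cells. SAR1B, which starts coat assembly, differed by -0.21. MAGT1, DAD1, STT3B, SEC31A and TRAM1 resembled PDIA3 and CALR in one respect: LPS replicate 1 was the lowest of the 4 arrays. Among the 31 members that array was the lowest for 6 and untreated replicate 1 for 13, and the share of all genes was not computed.

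**Figure D5:**
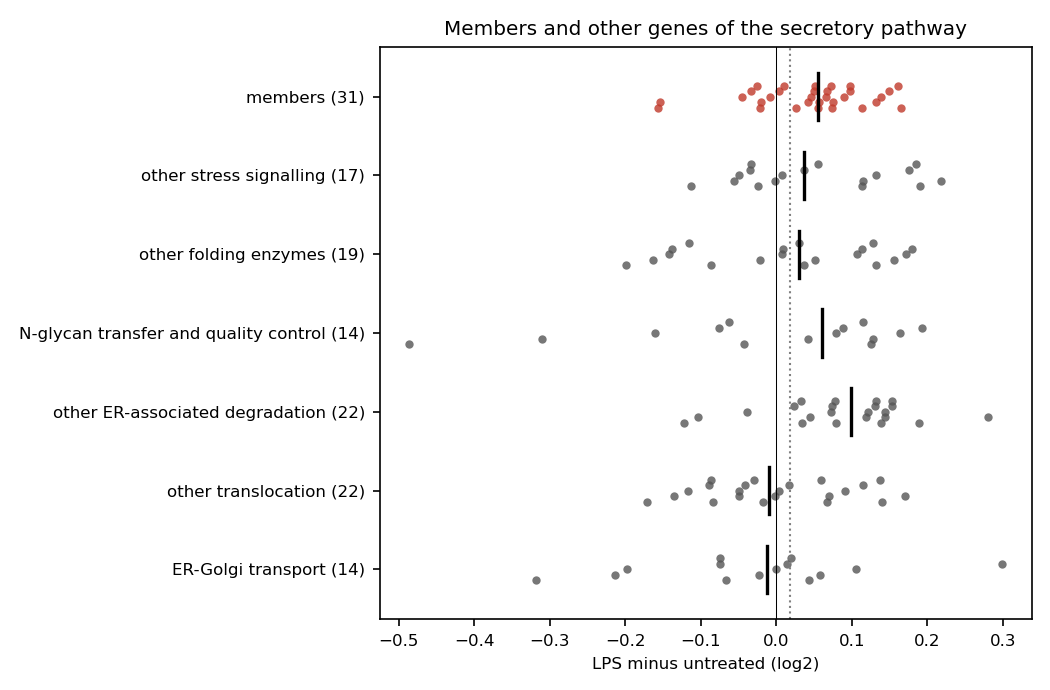
LPS minus untreated (log2, horizontal axis) of the 31 members in red and of the other measured genes of the pathway in grey, 1 row per list with its number of genes. Thick bars are list medians, from -0.012 for transport to 0.098 for other degradation genes, and the dotted line is the median of all genes at 0.017.

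Array medians ran from 6.31 to 6.36, and no array stood apart by that measure. All 6 epithelial markers (KRT8, KRT18, KRT19, EPCAM, CLDN4 and ELF3) lay above the median over genes, with differences of -0.07 to 0.06. Of 9 markers of leukocytes, fibroblasts, endothelium and red cells, 7 lay below it, and the exceptions were HBB and COL1A1. PTPRC, the common leukocyte antigen, averaged 4.93 in LPS-treated and 5.12 in untreated cells. The part of other cells in the differences was not tested.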

How the data were processed

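Total RNA of AGS cells was measured on 4 arrays. The authors deposited log2 expression values for 54675 probe sets, and MAS5 and RMA are named, with no role or version, per the submitters' processing notes. Array minima were 3.19 to 3.28. Background and normalization settings are not given in the sources used here. The deposited log2 values were used as they stand. Of the probe sets, 41097 had 1 gene symbol, 1801 several and 11777 none; symbols were checked by gene number, and none needed updating. The 62 control probe sets were left out.

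LPS-treated and untreated arrays entered a limma fit (version 3.58.1, R 4.3.3) without covariates. Its lmFit and eBayes steps let the variance follow intensity, and p-values were two-sided and adjusted by Benjamini-Hochberg over all 19775 genes. The test was tried on simulated arrays with independent errors and no shift between replicate numbers. In these data the deviations of same-numbered arrays correlated (r = 0.44), so no conclusion is drawn from that trial. Intervals are 95% intervals of that fit. The labels do not say that arrays of a group came from separate cultures beyond the 2 experiments of the design text. The p-values thus concern variation between arrays, and precision is low with 2 arrays a group. The eBayes step combines a gene's own variance (2 residual degrees of freedom) with a prior variance estimated over all genes (median total 7.54). Standard errors, intervals and p-values therefore do not rest on a gene's own arrays alone. PDIA4 had standard deviations of 0.014 (LPS) and 0.019 (untreated) and an SE of 0.091, while CALR had 0.34 and 0.15 and an SE of 0.17. Members and lists were chosen with earlier results of these data known. All members are named; other pathway genes are up to 3 per list with the largest moderated statistic. Alternatives were quantile normalization, a filter at the median over genes, the mean over a gene's probe sets, leaving out those ending in _x_at or _s_at, a constant prior variance, the replicate number as covariate, each probe set as its own test and each array left out. Sequences come from RefSeq. Figures were drawn with matplotlib 3.10.9.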

Additional observations from a re-analysis of the deposited data

How the results depend on the processing

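No member passed the adjusted threshold under any of the 11 alternatives, and over all genes the count was 0 in each direction except without LPS replicate 2. Leaving out 1 array gave 0 to 2 genes higher and 0 to 14 lower over all genes, 0 members, a member median of 0.042 to 0.071, and 20 to 23 members above 0 (the last count was chosen after seeing the data). Members with no overlap then numbered 13 to 20 above and 1 to 6 below, since fewer arrays overlap less often, and the lone array of a group is there assumed to vary like the other group. Over all genes 29.1% to 46.9% then had no overlap above and 23.7% to 35.8% below. The count of 20, without LPS replicate 1, stood beside 46.9% of all genes and 37.2% of those at or above the median level. A replicate block left the count of members called at 0 (limma, smallest adjusted p = 0.640). At an unadjusted p under 0.05 the block gave 2 members, SEC61B and SEC61A1, against 7.52% of all genes. Deviations of arrays with the same number correlated across genes (r = 0.44), but the labels do not state that a number marks a shared experiment. With the mean of all probe sets, 6 members had no overlap above and 1 below, and 17 were above 0 and 5 below 0 in both pairs. Without _x_at and _s_at probe sets 25 members remained measurable. Of these, 15 lay above 0, 13 were above 0 and 5 below 0 in both pairs, and 4 had no overlap above and 1 below. Shares over all genes were not computed under either setting, so these counts have no background beside them. The filter at the median, the constant prior variance and the replicate covariate leave a member's difference unchanged, so they could not turn a sign. CRELD2, DNAJB11, MANF, SDF2L1 and SIL1 have 1 probe set, so the choice of probe sets could not turn theirs either. The differences of 9 members kept their sign in every alternative that measured them: ATF6, CRELD2, DNAJB11, MANF, PDIA4, SDF2L1, SEC61A1, SEC61B and SIL1. Single arrays still moved their sizes: with 1 left out, MANF lay between 0.017 and 0.26, SIL1 between 0.033 and 0.26, ATF6 between 0.012 and 0.10, SDF2L1 between 0.019 and 0.13, CRELD2 between 0.049 and 0.15, DNAJB11 between 0.050 and 0.14, SEC61A1 between 0.091 and 0.24, SEC61B between 0.11 and 0.22 and PDIA4 between 0.076 and 0.10. The sign of the other 22 turned at least once, and the cause was not tested. With 1 array left out, the groups are uneven in replicate number, so the shift between numbers enters those differences. With the mean of all probe sets CANX was at 0.020, DERL2 was at -0.046, DNAJB9 was at -0.10, DNAJC10 was at 0.011, DNAJC3 was at -0.071, ERO1B was at -0.024 and PDIA6 was at -0.012. Without _x_at and _s_at probe sets DERL1 was at -0.027, DNAJB9 was at -0.11 and PDIA6 was at -0.15. With 1 array left out, CALR lay between -0.40 and 0.086, CANX lay between -0.11 and 0.023, DERL2 lay between -0.051 and 0.072 and DNAJB9 lay between -0.0087 and 0.14. DNAJC10 lay between -0.066 and 0.050, EDEM1 lay between -0.075 and 0.032, EDEM2 lay between -0.18 and 0.18 and EIF2AK3 lay between -0.11 and 0.066. ERN1 lay between -0.0070 and 0.058, ERO1B lay between -0.012 and 0.12, HERPUD1 lay between -0.053 and 0.20 and HSP90B1 lay between -0.045 and 0.31. HSPA5 lay between -0.015 and 0.11, HYOU1 lay between -0.0073 and 0.23, OS9 lay between -0.092 and 0.22 and P4HB lay between -0.10 and 0.19. PDIA3 lay between -0.38 and 0.070, PDIA6 lay between -0.0007 and 0.11, SEL1L lay between -0.12 and 0.048 and XBP1 lay between -0.10 and 0.045.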
